A study of Mus musculus with 18 samples.

Results

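The effect of deleting Bat3 in resting dendritic cells was read from 6 of the 18 RNA sequencing libraries of the study, chosen by their titles: 3 libraries of Bat3-deleted cells kept in medium and 3 of wild-type cells kept in medium. Genes were described across the transcriptome, and 11876 of the 23420 listed had enough counts to be tested. The cells were bone-marrow-derived dendritic cells (BMDC) of C57BL/6 mice, antigen-presenting cells grown from marrow with GM-CSF at 20 ng/ml, from which live CD11c-high cells were sorted after 8 hours. Bat3-deleted cells (cKO) carried Bat3 fl/fl alleles with CD11c Cre, so that recombination depends on the promoter of CD11c, the same integrin used for the sort. Control cells (WT) were labelled wild type. Of the other 12 libraries, 3 of cKO cells and 3 of WT cells had received LPS, the endotoxin of Gram-negative bacteria that TLR4 detects. They were used to set the effect under LPS beside the one at rest. The last 6 were WT cells given IL10 with TGF-β and WT cells given LPS with IL10 and TGF-β. All 12 also entered the count filter, the scaling and the common estimate of the spread, and so the resting p-values. They also entered the mean level by which genes were named or classed. The age of the mice, and whether libraries of one group came from separate animals or cultures, are not given in the labels, so p-values measure the spread between these libraries, which may be technical.

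Bat3 is the older name of Bag6. Its protein is a chaperone that binds exposed hydrophobic segments, hands tail-anchored membrane proteins to the insertion pathway with its partners GET4 and UBL4A, and sends mislocalised proteins to the proteasome. In T cells it binds the tail of the inhibitory receptor TIM-3. Dendritic cells at rest hold inflammatory cytokine transcripts low, and immediate early genes such as Fos and Egr1 are switched on within minutes of kinase signalling and off again by feedback inhibitors such as the dual-specificity phosphatases.

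Total expected counts ranged from 9155542 to 10246584 in the 6 resting libraries, with 14443 to 15483 genes above 0. Levels are given below as CPM, counts scaled to a common library size by TMM, and a gene was called when its adjusted p from edgeR's quasi-likelihood test (Benjamini-Hochberg over all genes tested) was under 0.05. The first principal component held 54.8% of the variance and had every cKO library on one side and every WT library on the other. The cKO library 1 had the female pattern, with Xist at 526 CPM, against 0.673 and 1.12 CPM in the other cKO libraries and 0.0841 to 0.515 CPM in the WT libraries. The number of genes called, the share called near Bag6 and many list counts are repeated without it. Counts by size of change, by overlap of libraries, by level and length class, and of genes shared with LPS were not repeated. Ribosomal precursor RNA (Rn45s) took 1.28%, 4.01% and 2.02% of counts in the cKO libraries, against 6.38%, 8.02% and 7.82% in the WT libraries. The integrin Itgax (CD11c) had 817, 701 and 912 CPM in the cKO libraries and 1014, 937 and 680 CPM in the WT libraries, and was not called (log2 fold change -0.12 ± 0.13 (SE), adjusted p = 0.53). Fewer cells of a type and less RNA per cell cannot be told apart in these bulk samples.

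Bag6 (chromosome 17, 35135156 to 35147321 on the mm10 assembly) had 4.81, 7.31 and 4.56 CPM in the cKO libraries, against 22.8, 24.6 and 23.1 CPM in the WT libraries. The groups were far apart, and the log2 fold change was -2.08 ± 0.17 (adjusted p = 9.1e-08). Reads remained in every cKO library, with 53, 76 and 49 rounded counts. One value per gene was deposited, which does not tell the floxed exons from the others.

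A large share of the transcriptome differed between cKO and WT cells. Of the 11876 genes tested, 3583 (30.2%) were called, 1876 higher (15.8%) and 1707 lower (14.4%), while the median log2 fold change over all genes was -0.001. Rises reached further than falls: at least 2-fold in 594 genes that rose and 290 that fell, at least 4-fold in 124 and 36, and at least 8-fold in 33 and 6. In 4675 genes (39.4%) the cKO and WT libraries did not overlap, 2384 with every cKO library higher (20.1%) and 2291 with every cKO library lower (19.3%). Without cKO library 1 the counts were 1375 higher and 1152 lower. With limma on log2(TPM + 1) they were 1434 higher and 2209 lower, where the median of all genes was -0.07, and when the fit held only the 6 resting libraries 1263 were higher and 1043 lower.

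**Figure D1:**
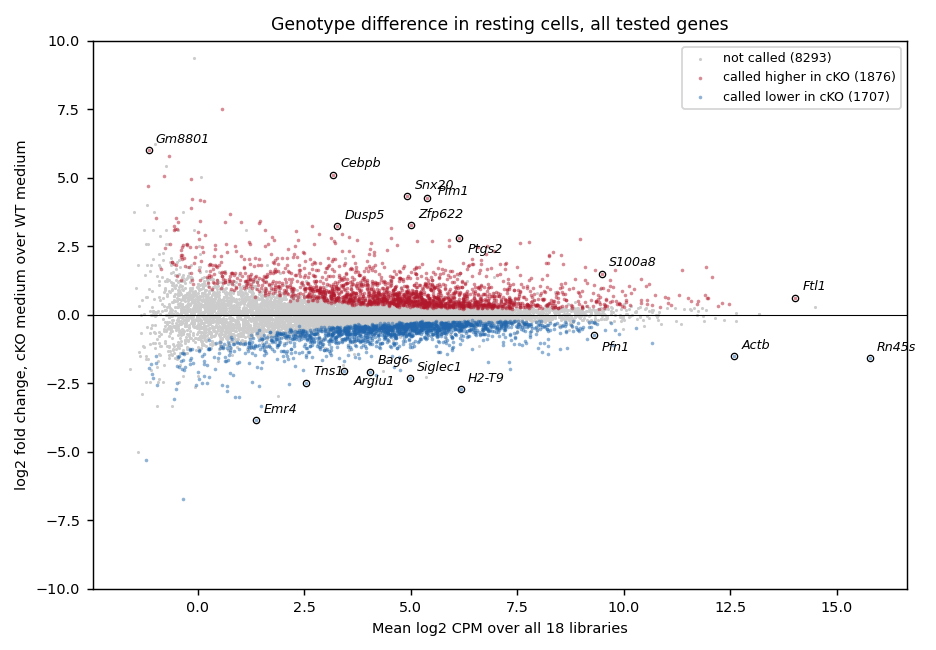
Each point is 1 of the 11876 tested genes, with its mean log2 CPM over all 18 libraries on the x axis and its log2 fold change, cKO medium over WT medium, on the y axis. Red points were called higher (1876), blue points lower (1707) and grey points were not called. Cebpb, Snx20 and Pim1 lie highest among the well expressed genes, while Actb and Rn45s fell among the most abundant.

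The largest rises among well expressed genes were in a myeloid transcription factor, a kinase and an endosomal sorting gene. Cebpb, which encodes the C/EBP-beta factor of myeloid and inflammatory transcription, had 31.0, 60.3 and 107 CPM in the cKO libraries, against 1.02, 2.66 and 2.02 CPM in the WT libraries. Its rise was 34.6-fold (log2 fold change 5.11 ± 0.57, adjusted p = 3.8e-05), and the 3 cKO values were spread over a wide range. Snx20, a sorting nexin that binds the adhesion ligand PSGL-1, had 111, 101 and 112 CPM in the cKO libraries, against 2.38, 10.2 and 3.53 CPM in the WT libraries (log2 fold change 4.33 ± 0.86, adjusted p = 0.0026). Pim1, a survival kinase of haematopoietic cells, was the most uniform, with 231, 216 and 224 CPM in the cKO libraries, against 10.9, 12.4 and 12 CPM in the WT libraries. Its log2 fold change was 4.24 ± 0.13 (adjusted p = 1.5e-15). In all of these genes the lowest cKO library was above the highest WT library, which the rule for naming them required. Pim1 lies on chromosome 17, as does Bag6.

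Zfp622, a zinc finger protein of late ribosome assembly, had 137, 123 and 204 CPM in the cKO libraries, against 11.0, 19.7 and 17 CPM in the WT libraries (log2 fold change 3.28 ± 0.33). Dusp5, a nuclear phosphatase of ERK kinases, had 26.9, 38.8 and 44.5 CPM in cKO, against 3.48, 5.15 and 3.03 CPM in WT (3.24 ± 0.30). Thbd, thrombomodulin, was low in both groups, at 5.35, 8.66 and 6.98 CPM in cKO and 0.849, 0.515 and 0.841 CPM in WT (3.23 ± 0.33). Every cKO library again lay above every WT library, as the same rule required. Ptx3, a secreted pattern recognition molecule, had 186, 148 and 216 CPM in cKO, against 20.5, 24.4 and 16.6 CPM in WT (3.16 ± 0.31). Ptgs2, the inducible cyclooxygenase, had 10.2, 23.5 and 9.87 CPM in cKO, against 3.31, 1.80 and 1.18 CPM in WT (2.78 ± 0.59). The remaining rises of the 14 were in Mogat2, an acyltransferase of triglyceride synthesis (3.06), the cysteine protease inhibitor Stfa1 (2.95), Fam110c (2.93), Ypel3 (2.83), the small GTPase Rab24 (2.79) and Ddit4, the stress-induced inhibitor of mTORC1 also called REDD1 (2.79). Adjusted p for the 14 ranged from 1.5e-15 for Pim1 to 0.0038 for Ptgs2. The value of Stfa1 is uncertain, since close copies of it can take its reads.

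**Figure D2:**
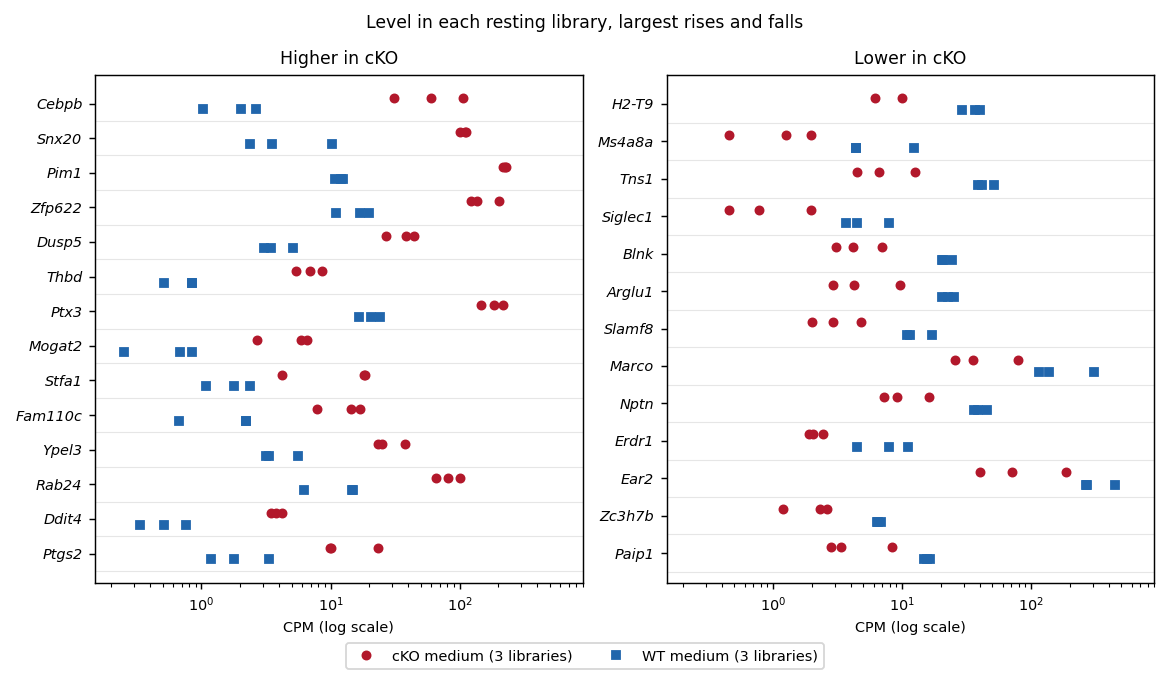
Level in each resting library, in CPM on a log axis, of the 14 genes with the largest rise (left) and 13 of the 14 with the largest fall (right) by the rule for named genes. Red circles are the 3 cKO medium libraries and blue squares the 3 WT medium libraries of each gene. The circles and squares of a gene never overlap, which the rule required. A library at 0 (H2-T9 in cKO library 1) has no point on the log axis.

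Where the mean log2 CPM over the 18 libraries was 2 or more, the largest falls were smaller than the largest rises and included genes of adhesion, scavenging and signalling. H2-T9, of the non-classical MHC class I genes, had 0, 10 and 6.15 CPM in the cKO libraries, against 36.9, 40.2 and 29.3 CPM in the WT libraries (log2 fold change -2.73 ± 0.57, adjusted p = 0.0037). Close copies can take its reads, and it was not called when the fit held only the resting libraries (adjusted p = 0.12). Ms4a8a, a tetraspan membrane protein, had 0.454, 1.25 and 1.96 CPM in cKO, against 4.42, 4.37 and 12.3 CPM in WT (-2.52 ± 0.53). Tns1, which links integrins to actin at focal adhesions, had 4.45, 6.64 and 12.6 CPM in cKO, against 38.8, 41.9 and 51.6 CPM in WT (-2.48 ± 0.31, adjusted p = 2.1e-05). No WT library was below a cKO library in these genes, which the rule for the falls required.

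Siglec1, a sialic-acid-binding lectin of macrophages, had 0.454, 0.770 and 1.96 CPM in cKO, against 3.65, 4.46 and 7.82 CPM in WT (-2.32 ± 0.42). Blnk, an adaptor between SYK and downstream kinases, had 4.17, 3.08 and 6.98 CPM in cKO, against 24.5, 20.8 and 20.4 CPM in WT (-2.20 ± 0.55), and lost its call when replicate 1 of both cKO groups was left out (adjusted p = 0.051). Marco, a scavenger receptor of bacteria and particles, had 35.6, 25.7 and 78.2 CPM in cKO, against 137, 114 and 307 CPM in WT (-2.0 ± 0.63, adjusted p = 0.031). The Marco call ended in the fit of resting libraries alone (adjusted p = 0.093) and without cKO library 1 (0.11), cKO library 2 (0.093) or WT library 3 (0.13). Other falls of the 14 were in Arglu1, a splicing coregulator (-2.04), Slamf8 (-2.02), Nptn, neuroplastin (-1.89), Erdr1 (-1.88), the ribonuclease Ear2 (-1.72), Zc3h7b (-1.69) and Paip1, a partner of poly(A)-binding protein (-1.68). Ear2 shares reads with near-identical copies, and its call ended with the resting libraries alone (adjusted p = 0.14), without cKO library 2 (0.053) and without WT library 3 (0.062).

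The list counts from here on are to be read beside all tested genes, of which 15.8% were called higher and 14.4% lower. With any 1 resting library left out, 20.9% to 29.3% of all genes were called, beside 30.2% in the main fit. A count near these shares is no result about its list. In some lists, such as the cytokines, members passed the count filter only with the other groups in the fit. Immediate early genes were called mostly higher. Of 26 tested, 14 rose, 2 fell and 10 were not called, with a median log2 fold change of 0.75, and between 13 and 16 rose when any 1 of the 6 libraries was left out. Their summed level was 3524, 3203 and 3588 CPM in the cKO libraries, against 1611, 1526 and 1393 CPM in the WT libraries. Fos, the AP-1 subunit, had 118, 141 and 155 CPM in cKO, against 27.3, 13.6 and 25.6 CPM in WT (log2 fold change 2.64 ± 0.21, adjusted p = 3.7e-07). Junb, its partner, had 976, 792 and 983 CPM in cKO, against 321, 294 and 282 CPM in WT (1.62 ± 0.10, adjusted p = 2.8e-09). These groups did not overlap. Egr1, a zinc finger factor induced by ERK, had 380, 306 and 406 CPM in cKO, against 118, 94.9 and 89.5 CPM in WT (1.85 ± 0.18). Nr4a1, an orphan nuclear receptor, had 140, 126 and 192 CPM in cKO, against 32.7, 22.1 and 15.8 CPM in WT (2.69 ± 0.26), and Rgs1, an inhibitor of G-protein signalling, had 196, 198 and 236 CPM in cKO, against 56.0, 42.6 and 40.6 CPM in WT (2.18 ± 0.16). The 2 members that fell, singled out after their values were seen, were Mafk (-0.94) and Myc (-0.54).

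The feedback inhibitors of MAP kinases were also called mostly higher. Of 16 MAP kinase phosphatase and Sprouty genes tested, 8 rose and 1 fell (median log2 fold change 0.95), and 6 to 8 rose with any 1 library left out. Dusp1, which inactivates p38 and JNK, had 332, 254 and 292 CPM in cKO, against 72.0, 59.8 and 60.6 CPM in WT (2.19 ± 0.16, adjusted p = 2e-08). Dusp6, an ERK phosphatase, had 186, 147 and 112 CPM in cKO, against 67.9, 66.5 and 59.6 CPM in WT (1.20 ± 0.17). Dusp14 had 5.08, 5.29 and 5.31 CPM in cKO, against 0.849, 0.429 and 0.168 CPM in WT (3.41 ± 0.47). All 3 phosphatases were higher in each cKO library than in each WT library. Among 9 C/EBP and PIM genes, 6 rose and 0 fell, and the count of rises was 6 with any 1 library left out. Besides Cebpb and Pim1, these included Pim3 (164, 178 and 176 CPM in cKO, against 71.4, 91.2 and 68.3 CPM in WT), Cebpd (21.1, 13.8 and 18.8 CPM in cKO, against 1.95, 5.66 and 5.13 CPM in WT) and Cebpe. Of 11 Kruppel-like factors, 5 rose and 2 fell. Klf2, a factor of myeloid quiescence, had 28.1, 33.0 and 42.2 CPM in cKO, against 6.11, 9.61 and 4.88 CPM in WT (2.33 ± 0.34), and Klf6 rose by 0.83 ± 0.10, while Klf13 fell by 0.77 on the log2 scale.

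Promoter sequences are shown for Dusp5, Dusp1, Fosb, Cebpb and Ptgs2, genes with large rises that were chosen because their windows hold a marked element. The windows of Pim1 and Ddit4, which also rose strongly, hold none and are not shown. Each is the window of 250 bases before the start in RefSeq's table (GRCm38.p6, the mm10 assembly), written 5′ to 3′ on the gene's strand, which 9526 of the 11876 tested genes had. Capitals mark TGACG or its reverse complement CGTCA, the core of cyclic AMP response elements, the CArG box bound by serum response factor, and the C/EBP palindrome TTGCGCAA.
Dusp5 (chr19:53528895-53529144, plus strand): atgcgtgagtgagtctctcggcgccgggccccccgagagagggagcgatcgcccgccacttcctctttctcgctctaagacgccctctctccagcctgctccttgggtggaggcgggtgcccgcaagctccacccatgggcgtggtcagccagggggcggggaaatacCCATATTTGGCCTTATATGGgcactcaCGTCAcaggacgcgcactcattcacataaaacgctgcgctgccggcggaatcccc
Dusp1 (chr17:26508473-26508722, minus strand): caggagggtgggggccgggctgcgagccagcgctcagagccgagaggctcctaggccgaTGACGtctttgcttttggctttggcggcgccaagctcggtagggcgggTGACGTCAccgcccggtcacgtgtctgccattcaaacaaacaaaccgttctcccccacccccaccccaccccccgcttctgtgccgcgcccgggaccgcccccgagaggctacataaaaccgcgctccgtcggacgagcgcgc
Fosb (chr7:19310046-19310295, minus strand): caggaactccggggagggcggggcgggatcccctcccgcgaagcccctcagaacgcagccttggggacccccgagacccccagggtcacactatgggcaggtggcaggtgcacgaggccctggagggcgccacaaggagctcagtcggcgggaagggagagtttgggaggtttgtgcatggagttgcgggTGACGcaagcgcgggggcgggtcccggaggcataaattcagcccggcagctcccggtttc
Cebpb (chr2:167688665-167688914, plus strand): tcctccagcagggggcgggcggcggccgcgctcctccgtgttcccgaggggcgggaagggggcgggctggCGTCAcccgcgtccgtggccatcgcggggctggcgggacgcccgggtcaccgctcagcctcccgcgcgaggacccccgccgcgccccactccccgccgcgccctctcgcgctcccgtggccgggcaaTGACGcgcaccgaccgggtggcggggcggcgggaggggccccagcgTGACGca
Ptgs2 (chr1:150099781-150100030, plus strand): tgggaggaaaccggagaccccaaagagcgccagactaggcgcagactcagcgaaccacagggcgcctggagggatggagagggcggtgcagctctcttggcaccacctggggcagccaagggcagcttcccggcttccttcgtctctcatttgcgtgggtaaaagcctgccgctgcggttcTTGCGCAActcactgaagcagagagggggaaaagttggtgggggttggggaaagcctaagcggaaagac

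The Dusp5 window held CArG boxes starting 82 and 72 bases before the start and a TGACG core 55 bases before it. In the Dusp1 window a full element, TGACGTCA, began at position -143 and is covered by the cores at -143 and -140. The Cebpb window had TGACG cores at -180, -53 and -7, the Fosb window had 1 at -60, and the Ptgs2 window had the C/EBP palindrome at -69. Searched on both strands, TGACG was present in 21 of 30 windows (70%) of immediate early genes, from 15 of the 20 genes with a window, compared with 26.4% of all 12093 windows of tested genes. It was present in 27.8% of the windows of genes that rose and 25.2% of those that fell, in 22% of the windows of genes that rose at least 4-fold, and in 4 of the 15 windows of the phosphatase list. The CArG box was in 5 of the 30 immediate early windows (16.7%), all of them from Egr2 and Srf, compared with 1.1% of all windows, and the C/EBP palindrome was in 0.256% of all windows. Windows of 1 gene overlap, and a match is a description of letters only. Egr2 and Srf were not called (log2 fold change 0.23 and -0.66), and Dusp5 was the 1 gene of the phosphatase list with a CArG match.

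Part of the inflammatory cytokine genes rose in resting cKO cells. Of 28 tested, 10 rose, 1 fell and 17 were not called (median log2 fold change 0.68, 8 to 10 rising with any 1 library left out). With only the resting libraries fitted, 20 passed the count filter, of which 8 rose and 1 fell, with a median of 0.44. The median of 0.68 thus includes genes that are near the floor at rest. Osm, oncostatin M, had 284, 256 and 262 CPM in the cKO libraries, against 57.7, 55.0 and 49.7 CPM in the WT libraries (2.30 ± 0.11, adjusted p = 1e-11). Il1b had 865, 1059 and 878 CPM in cKO, against 451, 421 and 259 CPM in WT (1.31 ± 0.17). Il6 had 16.5, 23.8 and 20.6 CPM in cKO, against 7.81, 8.06 and 5.97 CPM in WT (1.48 ± 0.20). No cKO library of these genes fell within the WT range. Csf1, the macrophage growth factor, rose by 1.25 ± 0.16 and Vegfa, the vascular growth factor, by 2.58 ± 0.35. The gene that fell was Lta (-1.26 ± 0.38, adjusted p = 0.016), and its call ended without cKO library 1 (adjusted p = 0.063), cKO library 2 (0.064), WT library 1 (0.073) or WT library 2 (0.05).

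Tnf had 38.7, 53.6 and 38.5 CPM in cKO and 46.3, 44.5 and 36.8 CPM in WT (log2 fold change 0.03 ± 0.16, adjusted p = 0.9). Il10 and Il12b were near the detection limit in both groups, at no more than 0.279 and 1.40 CPM in any library. Of 23 chemokine genes, 7 rose and 0 fell, led by Ccl3 (324, 322 and 313 CPM in cKO, against 148, 133 and 152 CPM in WT) and Ccl4 (206, 201 and 224 CPM in cKO, against 106, 78.5 and 76.4 CPM in WT), attractants of monocytes and T cells. Cxcl2, a neutrophil attractant, had 414, 664 and 347 CPM in cKO, against 199, 191 and 184 CPM in WT. The chemokine count was 4 without cKO library 1, WT library 1 or WT library 2. It was 4 of the 20 that passed the count filter with only the resting libraries fitted. Among 11 chemokine receptor genes, Ccrl2 (1.84 ± 0.19) and Ccr1 (0.63 ± 0.12) rose, and Ccr2 fell by 0.54 (adjusted p = 0.016, and 0.058 without cKO library 1 or 0.063 without WT library 3). Of 22 NF-kB genes, 7 rose and 1 fell. The inhibitors Nfkbiz (1.62 ± 0.16), Tnfaip3 (0.97 ± 0.13) and Nfkbia (0.78 ± 0.11) and the subunit Rela (0.79 ± 0.12) were among those that rose. Socs3, a feedback inhibitor of gp130 cytokine signalling, had 190, 201 and 184 CPM in cKO, against 108, 108 and 74.0 CPM in WT (0.99 ± 0.15). In the wider list of 35 SOCS, STAT and cytokine receptor genes 8 rose and 1 fell, and this balance turned to 4 higher and 6 lower on log2(TPM + 1). That list had 4 rises without cKO library 1 or WT library 3 and 5 without cKO library 2.

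**Figure D3:**
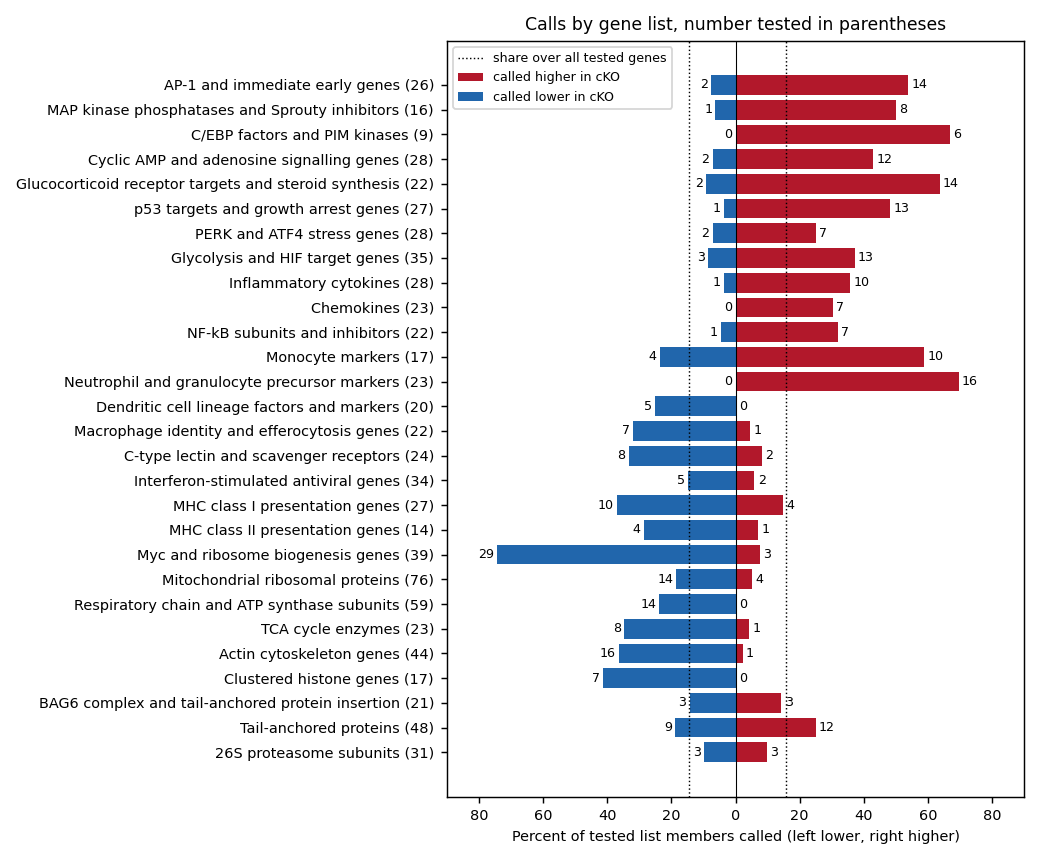
Percent of the tested members of 28 gene lists called higher in cKO medium (red, to the right) or lower (blue, to the left), with the count at the end of each bar and the number tested in parentheses. Dotted lines mark the shares over all tested genes, 15.8% higher and 14.4% lower. Immediate early, C/EBP and PIM, glucocorticoid and granulocyte precursor lists reach far to the right, and ribosome biogenesis reaches farthest to the left, with 29 of 39.

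Calls in the lists of antigen presentation and pathogen sensing went both ways, beside 15.8% higher and 14.4% lower over all tested genes. Of 27 MHC class I presentation genes 10 fell and 4 rose, 7 to 10 falling with any 1 library left out and 6 with only the resting libraries fitted. H2-T23, the non-classical ligand of NKG2 receptors, had 30.2, 32.5 and 36.2 CPM in cKO, against 75, 87.2 and 53.3 CPM in WT (-1.12 ± 0.15). Erap1, which trims peptides in the ER, fell by 0.77 (SE 0.10, adjusted p = 2.4e-05), and Pdia3, a peptide-loading chaperone, by 0.46. H2-T10 rose by 2.63 ± 0.18, and it shares reads with H2-T9 and other copies. Of 14 MHC class II genes 4 fell and 1 rose. Ciita, the class II transactivator, had 24.1, 31.4 and 28.2 CPM in cKO, against 78.8, 69.0 and 32.0 CPM in WT (-1.10 ± 0.27, adjusted p = 0.0059), while H2-Ab1 had 1724, 1346 and 2125 CPM in cKO and 2273, 2080 and 888 CPM in WT and was not called. WT library 3 was the lowest for several class II genes, and 7 members fell without it, against 2 without cKO library 1, cKO library 2 or WT library 1. Of the costimulatory and inhibitory list, 3 of 23 rose and 1 fell. Cd86, Cd80, Cd40 and Havcr2 (TIM-3) were not called, with overlapping libraries in each. Lilrb4, an inhibitory receptor, rose by 0.41 ± 0.09.

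Of 23 Toll-like receptor and adaptor genes 6 fell and 2 rose. Tlr9, the endosomal DNA sensor, had 1.63, 3.27 and 1.86 CPM in cKO, against 6.20, 7.2 and 5.89 CPM in WT (-1.51 ± 0.28), and Tlr8 and the adaptor Myd88 fell by 0.50 and 0.40. Cd14, the LPS co-receptor, went the other way, at 834, 725 and 686 CPM in cKO, against 353, 350 and 221 CPM in WT (1.28 ± 0.15). Its cKO libraries were all above its WT libraries. Of 34 interferon-stimulated antiviral genes 5 fell and 2 rose, and the falls were near the 14.4% of all tested genes called lower. Without WT library 3, 8 fell, in a fit where 22.2% of all genes were called in either direction. Trim30a (-0.67 ± 0.10), Zbp1 (-0.59 ± 0.10) and Ifi27l2a (-0.81 ± 0.15) fell. Of 18 interferon-inducible GTPases 3 fell and 1 rose, and of 9 interferon regulatory factors Irf5 alone was called (-0.23 ± 0.08, adjusted p = 0.042), a call lost without any one of 5 of the 6 libraries. Of 20 inflammasome and NOD-like receptor genes 4 rose and 4 fell, with Ripk2, the kinase downstream of NOD receptors, at 69.6, 71.1 and 76.8 CPM in cKO, against 23.6, 33.4 and 21.5 CPM in WT (1.47 ± 0.12), and Nlrc4 lower by 1.04. Of 24 C-type lectin and scavenger receptors 8 fell and 2 rose. Mrc1, the mannose receptor, had 45.0, 50.5 and 100 CPM in cKO, against 147, 167 and 189 CPM in WT (-1.36 ± 0.23), and Clec4e, the sensor Mincle, rose by 0.91 ± 0.17. The lectin falls numbered 3 without cKO library 1 and 4 without cKO library 2 or WT library 3. Among 8 Fc receptors, Fcgr1 (-1.25 ± 0.20) and Fcrls (-1.02 ± 0.25) fell, and Fcgr3 (0.50 ± 0.10) and Fcgr2b (0.56 ± 0.13) rose.

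Calls in 3 further lists were mostly rises. Of 27 p53 target and growth arrest genes 13 rose and 1 fell (median log2 fold change 0.42, 9 to 12 rising with any 1 library left out). Cdkn1a, the cell cycle inhibitor p21, had 762, 626 and 691 CPM in cKO, against 356, 383 and 276 CPM in WT (1.03 ± 0.12). Btg2, an antiproliferative gene that also promotes mRNA deadenylation, had 75.6, 73.2 and 76.5 CPM in cKO, against 33.4, 29.7 and 21.8 CPM in WT (1.41 ± 0.12, adjusted p = 1.4e-07). Plk3 had 57.7, 69.8 and 54.6 CPM in cKO, against 8.58, 13 and 9.34 CPM in WT (2.56 ± 0.33), and Gadd45a rose by 2.15 ± 0.24. The groups were apart in all 4 genes. Of 22 glucocorticoid receptor target and steroid genes 14 rose and 2 fell (median 0.68, 11 to 13 with any 1 library left out). This list shares Dusp1 with the phosphatases and Ddit4 with the stress list below, and its member Zfp36, which binds and destabilises cytokine mRNAs, had 150, 130 and 168 CPM in cKO, against 64.4, 56.8 and 43.4 CPM in WT (1.44 ± 0.14). Nr3c1, the glucocorticoid receptor itself, had 33.9, 45.7 and 41.5 CPM in cKO, against 30.5, 32.2 and 33.0 CPM in WT (0.34 ± 0.10, adjusted p = 0.012). Its call ended with the resting libraries alone (adjusted p = 0.1), without the count filter (0.076), on log2(TPM + 1) (0.14), and without cKO library 2 (0.073) or WT library 1 (0.054). Cyclic AMP and adenosine signalling genes held 12 rises and 2 falls among 28, among them Prkar2b, a regulatory subunit of protein kinase A (1.42 ± 0.17), the phosphodiesterase Pde4a (1.10 ± 0.19) and Gnas, the stimulatory G-protein subunit (0.84 ± 0.14).

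**Figure D4:**
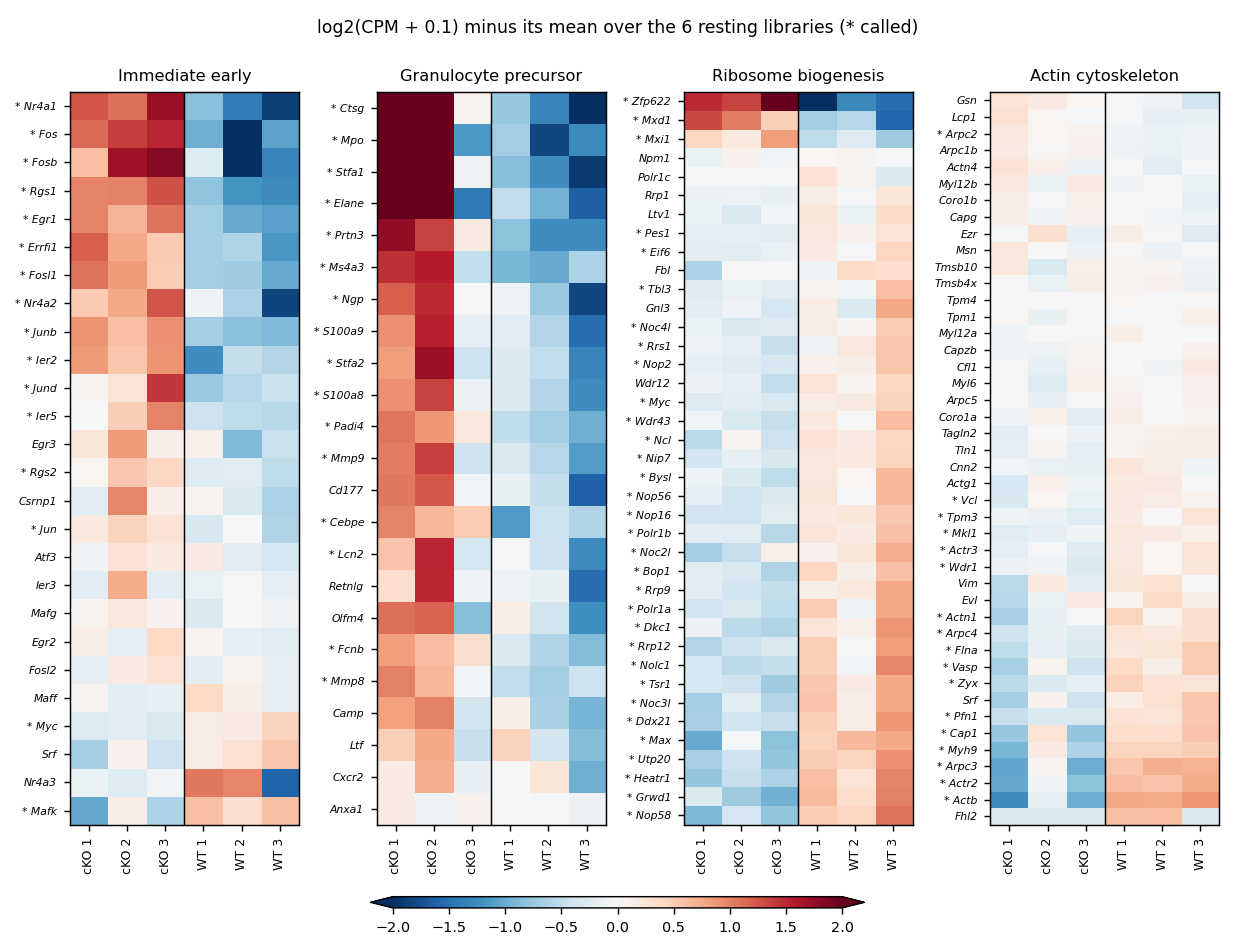
Every tested member of 4 gene lists (rows) in the 3 cKO and then the 3 WT resting libraries (columns), as log2(CPM + 0.1) minus the gene's mean over the 6 libraries, with red above and blue below the mean. Stars mark called genes. Colours saturate at 2 on either side. All 3 cKO libraries are red for the immediate early genes that rose most, cKO library 3 lies nearer to WT for granulocyte precursor genes, and cKO library 2 lies nearer to WT for Actb and its neighbours in the actin list.

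Genes of protein quality control, the field in which BAG6 works, were called in both directions, beside 15.8% higher and 14.4% lower over all tested genes. Of 21 genes of the BAG6 complex and tail-anchored insertion 3 rose and 3 fell, with Bag6 itself among those that fell. Ubqln1, a ubiquilin that also binds tail-anchored segments, had 115, 102 and 105 CPM in cKO, against 28.4, 49.2 and 53.6 CPM in WT (1.29 ± 0.17, adjusted p = 2.8e-05). Emc10, a subunit of the ER membrane protein complex, had 62.6, 57.0 and 80.1 CPM in cKO, against 14.3, 27.4 and 28.8 CPM in WT (1.5 ± 0.23), and Get4, which sits in the BAG6 complex, had 69.2, 57.1 and 66.0 CPM in cKO, against 31.6, 44.6 and 51.3 CPM in WT (0.59 ± 0.13). Each was higher in every cKO library. Of 48 genes listed as encoding tail-anchored proteins 12 rose and 9 fell, with a median of 0.002. This balance turned under several settings, such as 7 higher and 8 lower without cKO library 1. Vapa, an ER contact-site protein, rose by 0.93 ± 0.17, while Tomm5 fell by 0.84 and the apoptosis effector Bak1 by 0.92. Stx11, a syntaxin of granule release, rose by 2.00 ± 0.24. It was counted in this list although its protein has no transmembrane tail. Of 31 proteasome subunit genes 3 rose and 3 fell, led by Psmc5 (-0.74 ± 0.11). The proteasome counts were 0 higher and 4 lower without cKO library 1, 0 and 2 with only the resting libraries fitted, 6 and 2 without cKO library 2, 2 and 9 without WT library 2, and 1 and 10 on log2(TPM + 1).

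Of 32 ER folding and degradation genes 6 rose and 6 fell. Edem1, which extracts misfolded glycoproteins for degradation, had 152, 164 and 209 CPM in cKO, against 79.3, 95.4 and 87.6 CPM in WT (1.00 ± 0.13), and Xbp1, the factor of the IRE1 branch of the stress response, rose by 0.49 ± 0.09. P4hb, a disulfide isomerase, rose by 0.72 ± 0.12 and Pdia3 fell. In the list of PERK and ATF4 stress genes, 7 of 28 rose and 2 fell, with Ppp1r15a, the phosphatase subunit GADD34, at 110, 87.1 and 89.6 CPM in cKO, against 48.7, 43.6 and 31.1 CPM in WT (1.22 ± 0.15). Atf4 itself was not called (-0.05 ± 0.09), nor was Ddit3, which encodes CHOP (0.68 ± 0.27, adjusted p = 0.061). Slc7a1, a cationic amino acid transporter, fell by 1.19. Of 32 cytosolic chaperone genes 7 rose and 4 fell, among them Bag4 (0.95 ± 0.15), Dnajb4 (0.73 ± 0.13) and Hspa4l (0.74 ± 0.14), while the heat shock factor Hsf2 fell by 1.27. The chaperone counts were 4 and 7 without WT library 2, and 1 fell without cKO library 3 or WT library 3. Of 29 BCL-2 family and apoptosis genes 5 rose and 5 fell, with Birc3, an inhibitor of apoptosis, higher by 0.69 and Bbc3, which encodes PUMA, by 1.24.

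Ribosome biogenesis genes were called mostly lower. Of 39 tested, 29 fell and 3 rose, with a median log2 fold change of -0.59, and the falls numbered 18 to 32 when any 1 library was left out, 18 of them without WT library 3. The summed level was 1884, 1987 and 1889 CPM in cKO, against 2116, 2013 and 2399 CPM in WT. Max, the obligate partner of MYC, had 6.99, 13.8 and 7.92 CPM in cKO, against 19.5, 22.1 and 23.8 CPM in WT (-1.19 ± 0.18, adjusted p = 5.2e-05). The 3 members that rose were Zfp622, of late ribosome assembly, and Mxd1 and Mxi1, which encode competitors of MYC for MAX. Mxd1 had 198, 164 and 111 CPM in cKO, against 48.8, 53.8 and 26.6 CPM in WT (1.87 ± 0.24), and Mxi1 had 54.1, 45.9 and 71.5 CPM in cKO, against 28.2, 33.3 and 24.4 CPM in WT (1.00 ± 0.14). Members that fell and were singled out after their values were seen include Nop58, a scaffold of box C/D small nucleolar RNPs (-1.37), the ribosome assembly chaperone Grwd1 (-1.32), Ddx21, a nucleolar helicase (-1.03), and Polr1a, the largest subunit of RNA polymerase I (-0.84). The precursor Rn45s was lower in the same resting cKO libraries (-1.58 ± 0.32, adjusted p = 0.002). Under LPS it took 5.381% to 6.148% of counts in cKO libraries, within the 4.476% to 7.675% of WT libraries. The part that RNA extraction or depletion plays in its level was not tested.

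Other gene expression machinery was divided, and several of its counts were near the shares over all tested genes, 15.8% higher and 14.4% lower. Of 77 cytosolic ribosomal protein genes 10 rose and 4 fell, a balance that turned to 6 and 17 on log2(TPM + 1), to 14 and 17 without cKO library 2 and to 7 and 15 without the count filter, and it was 2 and 1 without cKO library 1. Of 76 mitochondrial ribosomal protein genes 14 fell and 4 rose, with Mrpl12 lower by 0.81 and Mrpl45 higher by 0.78, and 7 fell without WT library 3. Of 32 CLK and SR splicing genes 12 fell and 7 rose, with the kinases Clk3 (0.87 ± 0.13) and Clk4 (0.70 ± 0.11) higher and Srsf10 (-0.64 ± 0.10) and Tardbp, which encodes TDP-43 (-0.72 ± 0.12), lower. Of 25 mRNA decay genes 6 rose and 6 fell, and the falls numbered 2 without cKO library 1. Of 17 clustered histone genes 7 fell and 0 rose (3 to 8 falling with any 1 library left out), with the linker histone Hist1h1c at 20.2, 38.8 and 29.4 CPM in cKO, against 54.2, 56.6 and 44.9 CPM in WT. These genes have near-identical copies. Of 48 cell cycle and replication genes 2 rose and 4 fell (7 without WT library 2), Ccnd1 among the falls (-0.96 ± 0.17). Of 17 nuclear and small nucleolar RNA host transcripts 2 rose and 3 fell, with Malat1 higher by 0.66 ± 0.15.

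Oxidative and glycolytic genes were counted as separate lists. Of 59 respiratory chain and ATP synthase subunit genes 14 fell and 0 rose, each by a small amount: Atp5g3 had 90.7, 117 and 114 CPM in cKO, against 157, 159 and 202 CPM in WT (-0.69 ± 0.11), and Atp5b had 679, 790 and 770 CPM in cKO, against 1073, 994 and 1227 CPM in WT (-0.56 ± 0.10). The falls numbered 8 without cKO library 2, where 3 rose, 9 without WT library 3, and 4 with only the resting libraries fitted. Of 23 TCA cycle genes 8 fell and 1 rose, with Fh1, fumarate hydratase, lower by 0.61 and Cs, citrate synthase, by 0.31, and 5 fell without cKO library 1 or WT library 3 and 4 with only the resting libraries. Of 35 glycolysis and HIF target genes 13 rose and 3 fell (11 to 14 rising with any 1 library left out). Ankrd37, a hypoxia-induced gene, had 97.3, 63.7 and 92.4 CPM in cKO, against 26.9, 33.0 and 24.1 CPM in WT (1.59 ± 0.17), and P4ha2, a collagen prolyl hydroxylase, rose by 0.98 ± 0.16. Ldhb, the lactate dehydrogenase subunit that favours pyruvate, fell by 1.78 (SE 0.27). Slc2a3, which encodes the glucose transporter GLUT3 and was singled out after its value was seen, rose by 2.70.

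Lipid genes were called in both directions, beside 15.8% higher and 14.4% lower over all tested genes. Dgat1, which makes triglyceride, had 85.0, 65.4 and 97.5 CPM in cKO, against 31.0, 40.7 and 37.4 CPM in WT (1.18 ± 0.13), while the LXR factor Nr1h3 (-1.55 ± 0.31) and its target Abcg1, a cholesterol exporter (-0.89 ± 0.11), fell, in a list of 24 with 5 rises and 7 falls. Fasn, fatty acid synthase, had 31.0, 46.3 and 40.9 CPM in cKO, against 74.0, 67.8 and 81.8 CPM in WT (-0.92 ± 0.17), in a list of 19 with 3 rises and 6 falls. Of 25 cholesterol synthesis genes 4 rose and 1 fell, turning to 1 and 3 on log2(TPM + 1) and to 0 and 0 without cKO library 1, and Hmgcs1 and Acly were not called. Of 32 iron, haem and NRF2 genes 9 rose and 5 fell. Gclm, a subunit of the enzyme that limits glutathione synthesis, had 135, 91.7 and 113 CPM in cKO, against 8.24, 25.4 and 17.5 CPM in WT (2.73 ± 0.41), and Gsr, glutathione reductase, had 223, 206 and 188 CPM in cKO, against 45.5, 69.5 and 80.5 CPM in WT (1.66 ± 0.17). In both, each cKO library was above each WT library. Of 38 lysosomal genes 10 rose and 4 fell (6 rising without cKO library 1). Lamp1, the major lysosomal membrane protein, had 1428, 1182 and 1202 CPM in cKO, against 132, 238 and 197 CPM in WT (2.75 ± 0.44, adjusted p = 0.00055).

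Of 19 prostaglandin and leukotriene genes 6 rose and 2 fell. Ptges, which makes prostaglandin E2 downstream of Ptgs2, had 37.2, 32.0 and 26.5 CPM in cKO, against 10.3, 12.9 and 10.3 CPM in WT (1.51 ± 0.24), and Tbxas1, thromboxane synthase, fell by 0.44. Of 15 arginine, tryptophan and itaconate genes 5 rose and 4 fell, 2 falling without cKO library 2, cKO library 3, WT library 1 or WT library 3. Nos2, the inducible nitric oxide synthase, had 68.7, 103 and 63.5 CPM in cKO, against 32.4, 32.7 and 21.1 CPM in WT (1.45 ± 0.23), Arg2 rose by 1.56 ± 0.18 and Kynu, kynureninase, fell by 1.60. Of 26 TGF-β pathway genes 5 rose and 7 fell, with 2 rising without cKO library 2 or WT library 3 and 3 without WT library 1. Tgfbr1, a receptor, had 9.80, 11.7 and 14.9 CPM in cKO, against 30.3, 27.2 and 26.8 CPM in WT (-1.21 ± 0.15, adjusted p = 8.4e-06). Of 16 integrin genes 5 rose and 2 fell, with Itgb1 higher by 0.85 ± 0.16 and Itgal lower by 0.48; the rises numbered 2 to 3 without cKO library 1, cKO library 2, WT library 2 or WT library 3.

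Markers of cell identity also differed between the groups. Of 23 neutrophil and granulocyte precursor genes 16 rose and 0 fell, with a median log2 fold change of 1.46. Their summed level was 4962, 5619 and 2781 CPM in the cKO libraries, against 2528, 2189 and 1794 CPM in the WT libraries, so that cKO library 3 lay nearest to the WT libraries. Prtn3, a protease of primary granules, had 11.8, 8.76 and 3.82 CPM in cKO, against 1.87, 1.37 and 1.35 CPM in WT (2.4 ± 0.36). Ctsg, cathepsin G, had 3.72, 3.94 and 0.838 CPM in cKO, against 0.425, 0.257 and 0.0841 CPM in WT (3.41 ± 0.72). S100a8, a calcium-binding alarmin, had 928, 1254 and 452 CPM in cKO, against 401, 327 and 207 CPM in WT (1.49 ± 0.49, adjusted p = 0.037). The count of rises was 8 without cKO library 1, 9 without cKO library 2 or WT library 3, 10 without WT library 2 and 7 with only the resting libraries fitted. S100a8 and S100a9 lost their calls without any 1 of the 6 libraries save cKO library 3, and with the resting libraries alone (adjusted p = 0.073 and 0.12). Of the 16 that rose, Cebpe and Stfa1 also appear in groups above. Whether more cells of this type in the cKO sorts bear on the rises of Cebpb, the cytokines or the calcium-binding genes was not tested.

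Of 17 monocyte genes 10 rose and 4 fell, 2 falling without WT library 3. Ccr2, given above with the chemokine receptors, was among those that fell. The list shares Nr4a1 with the immediate early genes and Cd177 with the neutrophil list. Chi3l3, the chitinase-like protein Ym1, had 5724, 6100 and 5297 CPM in cKO, against 2393, 2481 and 1778 CPM in WT (1.36 ± 0.22), and Ly6c2, which shares reads with Ly6c1, rose by 0.73 ± 0.11. Of 22 macrophage identity genes 7 fell and 1 rose. Axl, a receptor for apoptotic cells, had 356, 373 and 466 CPM in cKO, against 777, 726 and 708 CPM in WT (-0.89 ± 0.11), Emr4, an adhesion receptor of myeloid cells, had 0.907, 2.02 and 1.86 CPM in cKO, against 15.8, 11.4 and 41.5 CPM in WT (-3.84 ± 0.61), and Emr1, which encodes F4/80, rose by 0.77 ± 0.12. Of 20 dendritic cell lineage genes 5 fell and 0 rose, 2 falling without cKO library 1, WT library 1 or WT library 2, 3 without cKO library 3 and 8 without WT library 3. Id2, a factor of dendritic cell development, had 138, 305 and 168 CPM in cKO, against 498, 479 and 452 CPM in WT (-1.23 ± 0.21), and Cd24a had 108, 237 and 132 CPM in cKO, against 348, 334 and 338 CPM in WT (-1.10 ± 0.20). Irf8 and Csf1r, the receptor of macrophage growth factor, were not called.

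Lists of other cell types were also counted, beside 15.8% higher and 14.4% lower over all tested genes. T and NK cell markers summed to 6.43 to 9.14 CPM in cKO and 4.21 to 5.83 CPM in WT, and mast cell and basophil markers to 31.6 to 52.0 CPM in cKO and 21.4 to 43.2 CPM in WT, with 4 of 13 tested rising and 1 falling (1 rising without cKO library 1, cKO library 2 or WT library 3, and 2 without WT library 2). Platelet genes Pf4 (491, 380 and 329 CPM in cKO, against 236, 197 and 250 CPM in WT) and Ppbp rose, and 3 of 4 erythroid and megakaryocyte genes were called. Of 7 stromal and endothelial genes 5 rose and 1 fell (2 rising without cKO library 1, cKO library 2 or WT library 3, and 3 without WT library 2), at a summed 79.0 to 132 CPM in cKO and 54.2 to 79.1 CPM in WT. Of 9 eosinophil genes 2 fell, of 8 stem and progenitor genes 2 rose, of 7 plasmacytoid dendritic cell genes 1 rose and 1 fell, and of 2 B cell genes Blnk fell. Of the T and NK cell genes 1 of 5 rose. Of 4 RNA quality transcripts 1 rose and 2 fell.

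Among abundant transcripts, set by the deposited TPM (which is scaled by transcript length), the largest rise as a difference in mean TPM was in Ftl1, the ferritin light chain that stores iron, with 35980, 25300 and 34030 TPM in cKO, against 20650, 21530 and 23630 TPM in WT (log2 fold change of counts 0.62 ± 0.13, adjusted p = 0.0011). Spp1, the secreted matrix protein osteopontin, had 7571, 4307 and 3614 TPM in cKO, against 1826, 1704 and 1367 TPM in WT (1.75 ± 0.26). Car4, a membrane carbonic anhydrase, had 5604, 4259 and 4424 TPM in cKO, against 1557, 1884 and 1506 TPM in WT (1.61 ± 0.23). The cKO libraries of these genes were above all WT libraries. Anxa2 (0.60 ± 0.11) and Ccl6 (0.41 ± 0.14) also rose, the last with overlapping libraries and a call lost without cKO library 1 (adjusted p = 0.15), cKO library 3 (0.065), WT library 1 (0.094) or WT library 2 (0.074).

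The actin gene Actb fell. It had 2131, 4728 and 2608 TPM in cKO, against 9356, 9015 and 10350 TPM in WT. Its scaled counts were 2286, 4872 and 2747 CPM in cKO, against 9322, 9105 and 10060 CPM in WT (-1.52 ± 0.19, adjusted p = 2e-05). The highest cKO library of Actb was still well below the lowest WT library. Actg1, another abundant actin gene, was not called (-0.23 ± 0.11, adjusted p = 0.1). It had 6591, 9032 and 7877 CPM in cKO, against 9649, 9572 and 8409 CPM in WT, with overlapping libraries. Pfn1, the actin monomer binder profilin, had 540, 604 and 602 CPM in cKO, against 915, 890 and 1084 CPM in WT (-0.73 ± 0.09). In a list of actin cytoskeleton genes written after these falls were seen, 16 of 44 fell and 1 rose, with a median of -0.22, and 8 fell with only the resting libraries fitted. Actr2 (-1.24 ± 0.17), Arpc3 (-1.23 ± 0.29), Arpc4 (-0.54) and Actr3 (-0.32) of the ARP2/3 complex and the crosslinker Flna (-0.65 ± 0.11) fell. The complex did not move as 1 group. Its subunit Arpc2 was the 1 gene of the list that rose (0.21 ± 0.08, adjusted p = 0.046), and Arpc1b (0.20) and Arpc5 (-0.13) were not called. The list was built on these libraries and is no independent evidence of its direction. Other falls among abundant genes were in S100a11 (-0.58 ± 0.13), Crip1 (-0.69 ± 0.16), Tpt1 (-0.51 ± 0.18) and the ribosomal stalk gene Rplp2 (-0.53 ± 0.18), and Tpt1 and Rplp2 lost their calls without any 1 of the 6 libraries save cKO library 2 (adjusted p = 0.17 and 0.16 without cKO library 1) and with the resting libraries alone (0.19 and 0.12). The cKO library 2, which had the highest Rn45s share of the 3 cKO libraries, also had the highest cKO level of Actb, Tpt1, Rplp2, Id2 and Cd24a. The part of Rn45s in these values was not tested, and with Rn45s removed from the counts 1752 genes were higher and 1861 lower.

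Genes close to Bag6 were counted by distance. Within 5 Mb of Bag6, 49 of 158 tested genes were called (31%), and on chromosome 17 as a whole 184 of 633 (29.1%), beside 30.2% of all genes. Without cKO library 1, 34 of 161 genes within 5 Mb were called (21.1%), beside 20.9% of all genes in that fit. Large changes took a higher share there. Called genes at least 2-fold apart made up 18 of the 158 within 5 Mb (11.4%) and 54 of the 633 on chromosome 17 (8.53%), beside 884 of 11876 overall (7.44%). At least 4-fold they made up 6 within 5 Mb (3.80%) and 20 on chromosome 17 (3.16%), beside 160 overall (1.35%), and the next highest chromosome had 2.22%. Bag6 itself is counted in the values for chromosome 17 and for all genes, and is left out of those within 5 Mb. These shares were not tested, and H2-T9 and H2-T10, whose close copies can take reads, lie on this chromosome. So do Pim1 and Dusp1, which rose at least 4-fold, with promoter windows from 29490535 and 26508473. Both lie outside the 5 Mb around Bag6. Whether their place on the targeted chromosome bears on these rises was not tested. Of the 8 nearest tested genes on each side, Ddah2 rose (1.28 ± 0.33), and Csnk2b (-0.34), D17H6S53E (-0.63), Aif1 (-0.84), Lta (-1.26) and Ddx39b (-0.37) fell. Prrc2a, the next gene at 16.0 kb from Bag6, was not called (-0.45 ± 0.19, adjusted p = 0.084). Gm8801, an unnamed gene model 0.809 Mb from Bag6, had 56, 54 and 33 rounded counts in cKO, against 2, 0 and 0 in WT, and was the only gene called with at most 3 counts in every library of one group and a mean of 30 or more in the other.

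Changes were also read against level and length. The shares here are to be read beside 15.8% higher and 14.4% lower over all tested genes. In the most abundant of 5 equal classes of genes 552 rose (23.2%) and 386 fell (16.25%). In the least abundant 216 rose (9.09%) and 174 fell (7.32%). In the longest of 5 classes of transcripts by deposited effective length (4390 bases and over) 252 rose (10.6%) and 499 fell (21.0%). Their median log2 fold change was -0.11. In the shortest class 362 rose (15.2%) and 297 fell (12.5%), with a median of 0.01. By genomic span, an added property, the longest class held 295 rises (12.5%) and 436 falls (18.4%). Of 11408 protein-coding genes 1833 rose (16.1%) and 1672 fell (14.7%). Of 316 long non-coding genes 27 rose (8.54%) and 18 fell (5.7%).

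The genotype effect under LPS was set beside the effect at rest. No library belongs to both comparisons, but the labels used do not say whether LPS and resting cells came from the same animals or cultures. Under LPS 4194 genes (35.3%) were called, 1901 higher (16%) and 2293 lower (19.3%). This split was 2171 and 1975 with RLE scaling and 724 and 5424 on log2(TPM + 1), where the median of all genes was -0.31. Of the 1876 genes that rose at rest, 774 also rose under LPS (41.3%, and 40.7% of all that rose under LPS), 108 fell and 994 were not called. Of the 1707 that fell at rest, 654 also fell under LPS (38.3%, and 28.5% of all that fell under LPS), 80 rose and 973 were not called. The difference between the effects, the interaction, was called in 2070 genes (17.4%), more positive under LPS in 870 (7.33%) and more negative in 1200 (10.1%).

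Among the genes with the largest resting changes, 3 kept nearly their full size. Cebpb had a log2 fold change of 4.58 under LPS (interaction -0.53, adjusted p = 0.72), Snx20 of 3.83 (-0.51, adjusted p = 0.81) and Ddit4 of 2.87 (0.08, adjusted p = 0.95). Pim1 was further raised, by 4.80 (interaction 0.55, adjusted p = 0.025). Thbd differed most, with 0.06 under LPS against 3.23 at rest (interaction -3.16, adjusted p = 0.00043), followed by Mogat2, Stfa1 and Zfp622 (-2.81, -2.56 and -2.42). The genes were picked for a large value at rest, which enters the interaction, so their share called is not a finding. Of the readouts not chosen that way, Xbp1 was higher at rest (0.49) and lower under LPS (-0.48; interaction -0.97, adjusted p = 4.7e-05), and Tnf, at 0.03 at rest, had 1.28 under LPS (interaction 1.25, adjusted p = 0.0011).

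**Figure D5:**
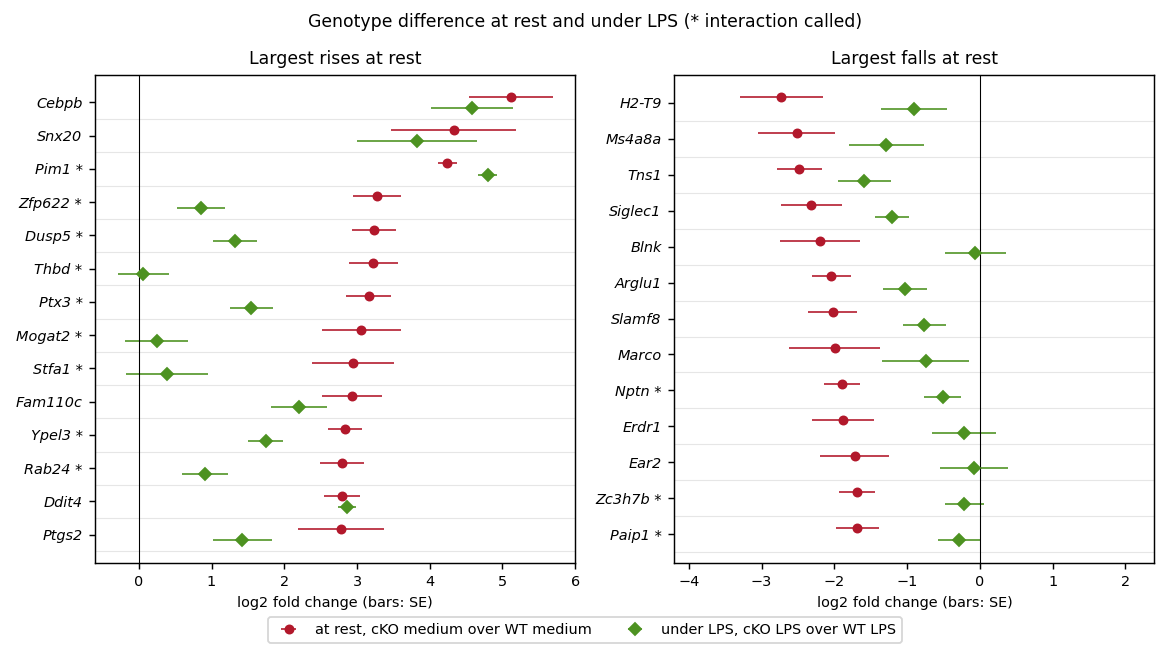
Log2 fold change of cKO over WT with its SE, at rest (red circles) and under LPS (green diamonds), for the 14 largest rises (left) and 13 of the 14 largest falls (right) at rest. Stars mark genes whose interaction was called. Cebpb, Snx20, Pim1 and Ddit4 lie far to the right in both conditions, while Thbd, Mogat2 and Stfa1 are near 0 under LPS.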

How the data were processed

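Bulk RNA sequencing was measured in 18 libraries, 3 in each of 6 groups, and groups were taken from the labels. The authors deposited, per the file headers, an expected count, a TPM value and an effective length for each of 23420 genes. The submitters' processing notes name RSEM, bcl2fastq and the mm10 build. Strand setting is not given in the sources used here. Expected counts were rounded to whole numbers, filtered by filterByExpr to 11876 genes, scaled by TMM and fitted over all 6 groups with edgeR 4.0.16 (R 4.3.3), by robust quasi-likelihood F-tests with Benjamini-Hochberg adjustment at 0.05. The unit, TPM, was used as deposited for levels of abundant genes. An SE is the absolute log2 fold change divided by the square root of F. The script was tested on simulated data.

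Named genes were Bag6, 14 rises and 14 falls of greatest size (called, no overlap, mean log2 CPM not under 2), from each list 4 called members by smallest p, or 2 members if none passed, fixed readouts, the 8 largest rises and 8 largest falls in mean TPM, genes at or under 3 counts in one group with a mean of at least 30 in the other, and 8 neighbours of Bag6 on each side. The members and the 63 lists were chosen with earlier results of these data known. Some genes were named after their values were seen. Coordinates and promoters are from RefSeq (GRCm38.p6). Alternatives used limma 3.58.1, DESeq2 1.42.0, other scalings and filters, a replicate block and each library left out. The labels mention 5 biological replicates, of which 3 libraries a group were analysed. Depth limits genes of few counts. 1 gene among the 14 falls is not reported here.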

Additional observations from a re-analysis of the deposited data

Results flagged for a closer look

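The genotype effect differed between LPS and rest by the interaction test in edgeR for the following genes, where a positive value means a more positive log2 difference, cKO over WT, under LPS. Among genes with large rises at rest, the interaction was 0.55 for Pim1, -2.42 for Zfp622, -1.92 for Dusp5, -3.16 for Thbd, -1.61 for Ptx3, -2.81 for Mogat2, -2.56 for Stfa1, -1.09 for Ypel3 and -1.88 for Rab24. Among those with large falls it was 1.38 for Nptn, 1.48 for Zc3h7b and 1.40 for Paip1. These genes were picked on the resting value, which enters the interaction. The interaction for Bag6 was 0.72, with a log2 fold change of -1.36 under LPS and -2.08 at rest. Among the readouts it was -0.97 for Xbp1, 1.25 for Tnf, 0.53 for Atf4 and -0.77 for Acly.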

How the results depend on the processing

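The fall of Bag6 was called under every alternative run, with log2 fold changes of -2.32 to -1.82. At rest 3583 genes were called, and leaving out 1 library gave 2527 to 3545, with 1375 to 1812 higher and 1152 to 1733 lower. With only the resting groups fitted, 2306 were called (2269 shared with the 3583), 1043 of them lower, and 1112 were lower when replicate 1 of both cKO groups was left out. Under LPS 724 were higher and 5424 lower on log2(TPM + 1), and 688 and 5555 on log2(TPM + 0.1). The interaction count of 2070 became 3309 and 3403 on those scales and 1268 without both first cKO replicates. The share called within 5 Mb of Bag6 was 20.4% of 274 genes with DESeq2. That fit had no count filter, and any gene without an adjusted p counted as not called. Over all listed genes, those without counts included, 15.6% were called in that fit (3648 of 23420). The median of the longest transcripts was -0.043 with DESeq2, -0.044 without a count filter and -0.192 on log2(TPM + 0.1). For the last changes of scale the cause was not tested. The labels used do not say whether same-numbered libraries share an animal or culture. In deviations from their group means, same-numbered cKO and WT medium libraries correlated at 0.155, -0.05 and 0.0576. Same-numbered medium and LPS libraries correlated at 0.174, 0.0691 and 0.155 in cKO, and at 0.101, 0.164 and -0.159 in WT. With a replicate block 3666 genes were called at rest, 1911 higher and 1755 lower. None of the 290 named genes changed sign past the threshold. Of the 260 that were called, however, 47 lost their call under at least 1 setting, and not all of these are marked above. Losses numbered 32 without cKO library 1 and 29 with only the resting groups fitted. Among named genes not called, 10 gained a call under some setting. The balance of higher and lower calls turned in 8 of 64 gene lists under some setting.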
